A study of Mus musculus with 6 samples.

Results

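The kinesin superfamily genes were the rows of the deposited table of gene levels that are annotated as protein-coding and carry a gene name starting with Kif or Kifc followed by a digit. There were 43 such genes among 54532 rows, of which 22046 are protein-coding. Of the 43, 42 encode kinesins, which are called motors here although Kif26a is without motor activity. The remaining one, Kif1bp, met the rule by its name only and encodes a protein that binds kinesin-3 motors and is itself no motor. The rule used no measured value. The motors were set apart by what they are known for: 15 act on the spindle and chromosomes, 4 are kinesin-2 motors of intraflagellar transport, 6 act at cilia or the sperm axoneme, and 17 carry cargo in the cytoplasm or have another role.

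Kinesins are motor proteins that use ATP to walk along microtubules or to take microtubule ends apart. In dividing cells they build the spindle, move chromosomes and organise cytokinesis. In cilia and the sperm tail kinesin-2 carries building material outward along the axoneme, and other kinesins set its length or sit in its central apparatus. In testis, dividing spermatogonia, spermatocytes and haploid spermatids that shape a head and a tail draw on different members of the superfamily.

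RNA was sequenced in 6 libraries of cells described as STRA8+ from suspensions of mouse testis. STRA8 marks germ cells that enter meiosis. The 3 control libraries have the genotype "Cre" and the 3 knockout libraries the genotype "knockout", described as a conditional knockout. The deleted gene, the promoter that drives Cre, and the age, strain and number of animals are not stated in the sources used here. The series title points to BCAS2 and hnRNPH1, and its question is how these act on splicing, break repair and synapsis in meiotic prophase. The labels do not tie the libraries of a group to different animals, and the p-values here rest on a spread among libraries that may be technical only.

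Levels are in FPKM (fragments per 1000000 and per kilobase of a gene's length), as the authors deposited them. A value with ± is the mean and SD of a group's 3 libraries. The reads behind them totalled 14532453 to 16963019 in the controls and 14770320 to 15204127 in the knockout. Bcas2 was at 19.8, 19.3 and 20.5 FPKM in the controls and at 4.78, 4.38 and 5.40 in the knockout. Stra8 was at 17.0 ± 5.55 FPKM in the controls and 132.8 ± 6.42 in the knockout. The control libraries held far more of the spermatid gene Odf1, at 1553.8 ± 188.8 FPKM, than of Stra8, and Odf1 was at 0.348 ± 0.137 FPKM in the knockout. All 20 spermatid markers fell, from a summed 21573.8 to 25154.8 FPKM per control library to 11.1 to 15.6 per knockout library, with Prm3 at 0 in all 3 knockout libraries. All 15 markers of pachytene spermatocytes fell, from 8018.5 to 9540.0 to 127.7 to 173.9 summed FPKM. Of 14 spermatogonial markers tested 11 rose and 2 fell, from 98.7 to 154.8 to 667.2 to 783.3 summed FPKM. Of 14 Sertoli cell markers 11 passed the filter and all 11 rose, from 93.1 to 219.3 to 421.0 to 771.2 summed FPKM. The extraction protocol speaks of retinas, and a list of 10 photoreceptor markers summed to 7.27 to 7.85 FPKM in the controls and 3.77 to 4.06 in the knockout, with Crx at 0 throughout.

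The summed level of the kinesin transcripts was 1238.1 ± 83.8 FPKM in the controls and 362.6 ± 26.7 in the knockout, which is 0.262% ± 0.00389 and 0.175% ± 0.0126 of the summed FPKM of all genes. In a bulk sample fewer cells of a type and less RNA per cell cannot be told apart, here and in all that follows. Motors of the sperm tail and one spindle motor, Kif2b, took most of the loss, while cytoplasmic transport motors and a group of spindle motors were higher.

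Of the 43 genes, 39 averaged 1 FPKM or more across the 6 libraries and were tested, together with all other such genes. The test was limma on log2(FPKM + 0.5), knockout minus control, with a Benjamini-Hochberg adjusted p of 0.05 as the threshold. It called 33 of the 39 kinesins (84.6%), 16 of them higher (41.0%) and 17 lower (43.6%). Among all 16791 genes tested it called 86.6%, with 36.2% higher and 50.4% lower, so the share of kinesins called was near that of genes at large. The groups did not overlap for 33 of the 39 kinesins, against 88% of all genes tested. The median log2 fold change was -0.22 over the 39 kinesins and -0.41 over all genes tested.

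How libraries are scaled bears on direction here. The number by which each library's deposited FPKM had been divided was 0.691 to 0.774 times the library's total reads in the controls and 1.37 to 1.42 times in the knockout. When each library's FPKM was made to sum to 1000000, the median of all genes moved by 1.12 on the log2 scale. The test then called 90.5% of all genes, 54.2% higher and 36.2% lower, and called 25 kinesins higher and 11 lower. Scaling to total reads moved the median of all genes by 0.83 and quantile normalization by 0.94. A call was made in the same direction under all 4 scalings for 16 kinesins that were higher and 11 that were lower. The same held for 36.2% of all genes for higher and 34.2% for lower. The other 6 kinesins called lower as deposited were Kif20a, Kif18b, Kif3a, Kif24, Kif16b and Kif21b, whose values under each scaling are given beside their levels. Ratios of genes within a library and shares of the summed kinesin level, given below from the deposited values, do not depend on the number a library is divided by. Quantile normalization, which is no such division, can change them.

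**Figure D1:**
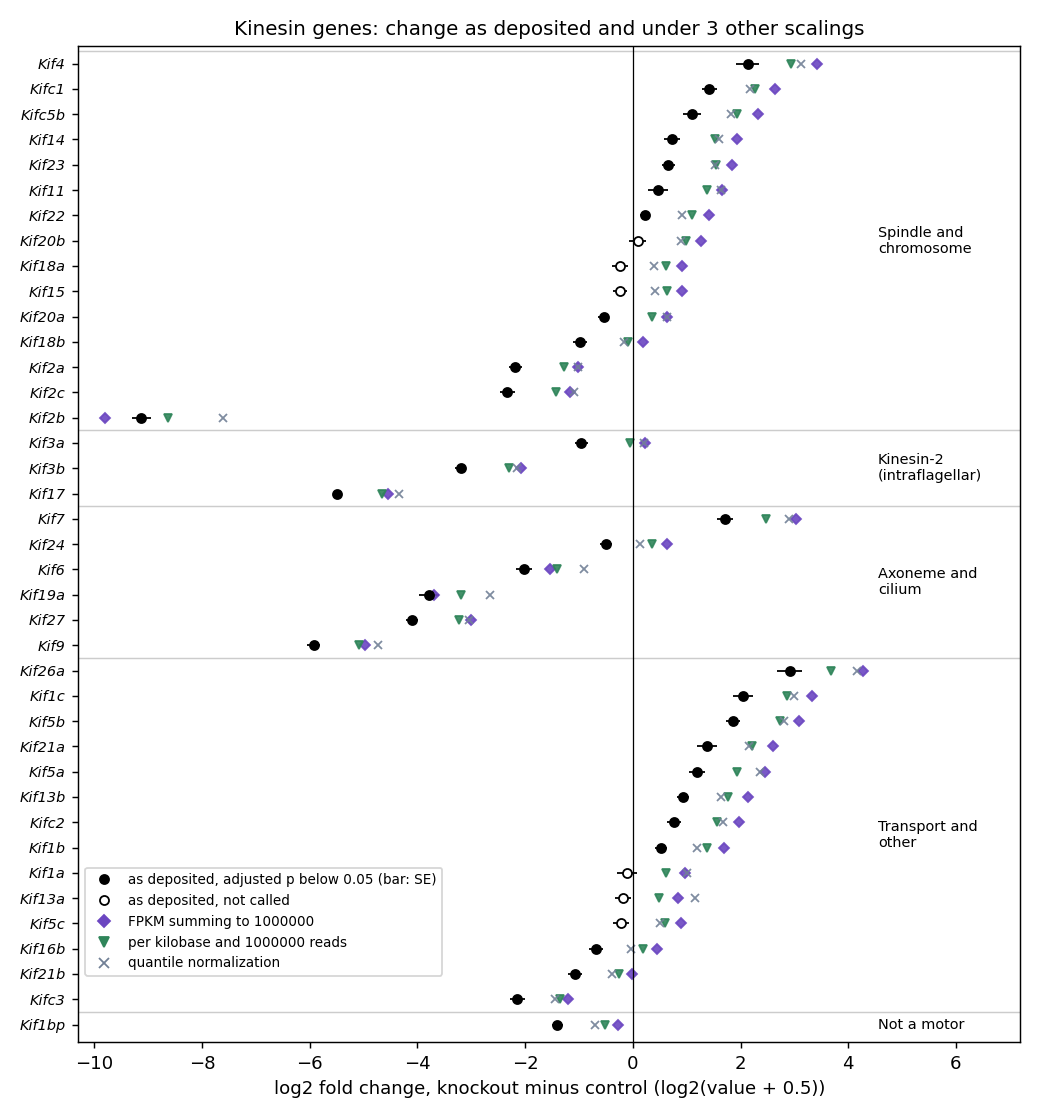
Log2 fold change, knockout minus control, of the 39 kinesin genes tested, by role. Circles are the deposited scaling with the SE as a bar (filled, adjusted p below 0.05), diamonds FPKM summing to 1000000, triangles reads per kilobase and 1000000 reads, and crosses quantile normalization. Genes near 0, such as Kif3a, Kif20a and Kif24, lie on different sides of 0 under different scalings, while Kif2b, Kif17 and Kif9 lie far below 0 under each of the 4.

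The most abundant kinesin of the controls was nearly lost. Kif2b (ENSMUSG00000046755, chr11:91575315-91577558, minus strand, mm10) encodes a kinesin-13, a motor that does not walk but strips subunits from microtubule ends. Its level was 342.1, 326.9 and 299.5 FPKM in the controls against 0, 0.264 and 0 in the knockout. Every control library was above every other kinesin in any library, and 2 knockout libraries had no read. The reads were 7707, 9637 and 8281 in the controls against 0, 12 and 0 in the knockout. With the deposited scaling the level in the controls was 3765.2 times that in the knockout (exact 95% interval 2155.1 to 7287.7, counting error only). All 12 reads lie in knockout library 2. Without that library the knockout had no read, and the lower limit of the exact 95% interval of the ratio was 8287.8. Setting the knockout to a floor of 3 reads would give a ratio of 10191.6. The summed spermatid markers were also highest in knockout library 2, at 15.6 FPKM against 12.0 in library 1 and 11.1 in library 3. The limma adjusted p was 2.4e-09, and the fitted log2 fold change of -9.13 depends on the pseudocount.

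Its kinesin-13 relatives Kif2a and Kif2c fell too but stayed well expressed. Kif24, also of kinesin-13, is given below with the ciliary motors. Kif2a, which works at spindle poles and in neurons, was at 88.9, 70.1 and 72.4 FPKM in the controls against 14.7, 18.2 and 16.8 in the knockout. Kif2c, or MCAK, which acts at kinetochores, was at 98.7, 82.3 and 86.8 FPKM in the controls against 14.4, 17.7 and 20.4 in the knockout. Neither gene's groups overlapped. The log2 fold changes were -2.18 ± 0.124 (SE, limma adjusted p = 9.9e-07) for Kif2a and -2.33 ± 0.139 (limma adjusted p = 1.3e-06) for Kif2c. The ratio of Kif2c to Kif2a within a library was 1.16 ± 0.0457 in the controls and 1.05 ± 0.139 in the knockout, a difference that did not pass an exact permutation test (two-sided p = 0.40, n = 3 per group). Of the transcript sequence of Kif2a, 17.9% of all 50-base windows are shared with the antisense gene Dimt1, and whether reads were counted by strand is not given in the sources used here.

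A group of 7 other spindle motors rose: Kif4, Kifc1, Kifc5b, Kif14, Kif23, Kif11 and Kif22. Over all 15 spindle motors 7 were higher, 5 lower and 3 not called, with a median log2 fold change of 0.09. Their share of the summed kinesin level was 51.7% ± 1.18 in the controls and 55.7% ± 2.88 in the knockout, and the libraries overlapped. The make-up of that share changed: Kif2b took 26.1% ± 1.25 of the summed kinesin level in the controls and 0.0237% ± 0.041 in the knockout.

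Kif4 showed the largest rise among spindle motors. It encodes a chromokinesin that binds chromosome arms and, with PRC1, the central spindle. Its level was 1.64, 2.95 and 2.38 FPKM in the controls against 9.49, 13.6 and 12.3 in the knockout (log2 fold change 2.13 ± 0.206, limma adjusted p = 2.3e-05). The lowest knockout library was above the highest control. Of its 50-base windows 14.2% are shared with the antisense gene Pdzd11. The pseudogene Kif4-ps, no member of the set, went the other way, from 10.4 ± 0.697 to 0.236 ± 0.0542 FPKM. How reads that fit both copies were counted is not given in the sources used here. With any other gene, Pdzd11 included, 14.5% of the windows of Kif4 are shared, so few windows outside that overlap match Kif4-ps exactly.

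Kifc1, a minus-end-directed motor that crosslinks spindle microtubules, was at 3.39, 3.78 and 4.72 FPKM in the controls against 10.7, 11.2 and 12.1 in the knockout. Its near copy Kifc5b was at 3.34, 3.71 and 4.91 FPKM in the controls against 8.23, 8.45 and 10.6 in the knockout. Both rose without overlap, by log2 fold changes of 1.42 ± 0.135 (limma adjusted p = 2.1e-05) and 1.10 ± 0.164 (limma adjusted p = 3.1e-04). The copies share 38.6% of the 50-base windows of Kifc1 and 36.6% of those of Kifc5b, so the split of reads between them is uncertain.

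Kif23, the motor of the centralspindlin complex that drives cytokinesis, was at 13.4, 11.2 and 11.4 FPKM in the controls against 16.8, 21.4 and 19.4 in the knockout. Kif14, which works with citron kinase in cytokinesis, was at 2.77, 2.58 and 2.37 FPKM in the controls against 3.89, 4.69 and 5.32 in the knockout. The groups did not overlap for either gene. The log2 fold changes were 0.66 ± 0.121 (limma adjusted p = 0.0011) for Kif23 and 0.73 ± 0.143 (limma adjusted p = 0.0016) for Kif14.

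The rises of Kif11 and Kif22 were close to the threshold. Kif11, the kinesin-5 that pushes spindle poles apart, was at 28.7, 27.6 and 18.5 FPKM in the controls against 28.7, 37.8 and 36.0 in the knockout, and the groups overlapped. Its log2 fold change was 0.46 ± 0.184 (limma adjusted p = 0.044). The adjusted p was 0.12 without control library 3, 0.0517 without control library 2, 0.121 without knockout library 2 and 0.108 without knockout library 3. Kif22, a chromokinesin that pushes chromosome arms, was at 8.99 ± 0.0418 FPKM in the controls and 10.6 ± 0.524 in the knockout (log2 fold change 0.23 ± 0.0908, limma adjusted p = 0.044). Its adjusted p was 0.0812 without control library 2, 0.0728 without control library 3, 0.148 without knockout library 2 and 0.116 without knockout library 3. Under the other 3 scalings both rises were larger, at 1.37 to 1.65 for Kif11 and 0.92 to 1.41 for Kif22 on the log2 scale.

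For the other 5 spindle motors the direction was set by the scaling or the call was not made. Kif20a, a motor of the late central spindle, was at 39.0, 37.1 and 39.1 FPKM in the controls against 23.3, 26.4 and 29.3 in the knockout. It was called lower as deposited (log2 fold change -0.54, limma adjusted p = 0.0013) and had log2 fold changes of 0.63, 0.36 and 0.64 with FPKM summing to 1000000, total reads and quantile normalization. Kif18b, which trims astral microtubules, was at 22.9 ± 2.39 FPKM in the controls and 11.4 ± 1.67 in the knockout. Its log2 fold change was -0.98 as deposited (limma adjusted p = 1.6e-04) and 0.18, -0.09 and -0.17 under the same 3 scalings. Kif15, a helper of Kif11, and Kif18a, which aligns chromosomes at metaphase, both had a log2 fold change of -0.24 and were not called (limma adjusted p = 0.13 and 0.18). Kif20b, a motor of cytokinesis, had 0.09 and was not called (limma adjusted p = 0.61). With FPKM summing to 1000000 these 3 were at 0.92, 0.91 and 1.26.

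Ratios within a library place the spindle motors against each other. Kif23 per Kif20a was 0.343, 0.302 and 0.290 in the controls against 0.723, 0.810 and 0.663 in the knockout. Kif4 per Kif20a was 0.0609 ± 0.0187 in the controls and 0.448 ± 0.0587 in the knockout, and Kif11 per Kif15 was 2.57 ± 0.509 and 4.17 ± 0.104. Kif18a per Kif18b was 0.319 ± 0.0300 in the controls and 0.539 ± 0.0601 in the knockout. In each of these ratios all 3 knockout libraries were above all 3 controls. With 3 libraries against 3 the exact two-sided permutation test cannot go below p = 0.10, the value each of them reached, or 0.11 when adjusted by Benjamini-Hochberg over the 14 ratios computed. Kif20a shares 25.2% of its 50-base windows with the antisense gene Cdc23.

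Partners of these motors, and other genes of G2 and mitosis, were split as deposited, and less so under the other scalings. Of 12 spindle partners tested 6 rose and 5 fell as deposited, with a median of 0.09. With FPKM summing to 1000000, 9 of the 12 rose and 1 fell, and 7 rose and 1 fell with total reads and with quantile normalization. Numa1, which focuses spindle poles, rose from 10.1 ± 0.924 to 29.7 ± 2.59 FPKM, and Ska1, of the kinetochore, fell from 14.5 ± 3.75 to 3.74 ± 0.616. Racgap1, the partner of Kif23 in centralspindlin, rose by 0.35 on the log2 scale (limma adjusted p = 0.0080). Prc1, the partner of Kif4, was at -0.85 as deposited and called lower. It was called higher with FPKM summing to 1000000 (0.31) and not called with total reads (0.04) or quantile normalization (-0.08). Cenpe is a kinetochore motor of the kinesin superfamily whose name lies outside the rule. It was at 30.4 ± 4.18 FPKM in the controls and 17.7 ± 2.27 in the knockout, and was called lower as deposited. With FPKM summing to 1000000 Cenpe was called higher (0.41), and it was not called with total reads (0.14) or quantile normalization (0.22). Of 16 genes of G2 and mitosis that are no kinesins, 6 rose and 8 fell as deposited, and 12 rose and 3 fell with FPKM summing to 1000000. For all genes tested the shares were 36.2% higher and 50.4% lower as deposited, and 54.2% and 36.2% with FPKM summing to 1000000. As deposited the split of the 16 was thus near that of genes at large, and all genes shifted towards higher with that scaling. Ccna2 (4.87 ± 1.08 to 23.3 ± 3.32 FPKM) and Mki67 (8.85 ± 1.79 to 36.0 ± 6.37) rose, and Aurka (106.8 ± 13.3 to 15.2 ± 1.72) and Ccnb2 (165.7 ± 20.8 to 29.1 ± 3.64) fell. These levels moved with the spermatogonial and spermatid marker sums given above, and the part of those cells in the result was not tested.

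The spindle motors that rose as deposited shared letters in their promoters. RefSeq windows of 300 bases, 250 before and 50 after a start site in GRCm38.p6, were given for 33 of the 43 genes, and 14 of the 15 spindle motors were among them. The motif TTTGAA or TTCGAA, the cell cycle homology region (CHR) bound by the DREAM and MuvB complexes, was searched on both strands, as was CCAAT, the box bound by NF-Y. Such CHR letters were in 11 of 14 spindle windows (78.6%), in 1 of 10 transport windows and in 19.2% of all 32851 windows. They were in 2 of 5 axoneme and cilium windows and 0 of 4 kinesin-2 windows. CCAAT was in 9 of 14 spindle windows (64.3%), 2 of 10 transport windows and 37.4% of all windows. It was also in 3 of 5 axoneme and cilium windows (60%) and 2 of 4 kinesin-2 windows (50%), so CCAAT was not particular to the spindle motors. All 7 spindle motors called higher as deposited held both, while of the other 7 with a window 4 held the CHR letters and 2 held CCAAT. Among these other 7, Kif15, Kif18a and Kif20b were called higher under the other 3 scalings. Kif15 and Kif20b held the CHR letters without CCAAT, and Kif18a held neither, so the split depends on the scaling. Kifc1 and Kifc5b are near copies, and the start site used for Kif14 lies 1505 bases from its start in the deposited table. Promoters of Kif11 (chr19:37376132-37376431, plus strand), Kif23 (chr9:61946750-61947049, minus strand) and Kifc1 (chr17:33890584-33890883, minus strand) are shown as examples, with both motifs in capitals, read on either strand.
Kif11: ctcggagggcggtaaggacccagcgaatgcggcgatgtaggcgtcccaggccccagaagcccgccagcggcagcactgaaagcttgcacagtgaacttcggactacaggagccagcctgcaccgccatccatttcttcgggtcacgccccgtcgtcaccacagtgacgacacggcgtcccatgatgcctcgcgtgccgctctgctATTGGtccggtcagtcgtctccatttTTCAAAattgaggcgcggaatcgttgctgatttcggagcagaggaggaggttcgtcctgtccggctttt
Kif23: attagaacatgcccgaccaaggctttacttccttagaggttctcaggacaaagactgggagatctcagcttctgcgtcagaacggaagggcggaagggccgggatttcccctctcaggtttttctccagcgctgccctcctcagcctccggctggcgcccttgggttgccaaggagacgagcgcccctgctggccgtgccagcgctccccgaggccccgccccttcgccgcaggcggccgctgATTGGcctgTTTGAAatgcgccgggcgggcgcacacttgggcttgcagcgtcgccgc
Kifc1: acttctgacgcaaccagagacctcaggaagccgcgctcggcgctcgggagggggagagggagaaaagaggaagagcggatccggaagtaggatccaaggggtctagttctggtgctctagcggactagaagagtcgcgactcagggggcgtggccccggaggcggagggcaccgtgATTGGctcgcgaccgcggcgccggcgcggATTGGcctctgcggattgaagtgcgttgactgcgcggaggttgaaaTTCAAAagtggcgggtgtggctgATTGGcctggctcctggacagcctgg
In Kif11 CCAAT (here read as ATTGG) began 45 bases before the start site and the CHR letters 19 before it. In Kif23 CCAAT began 7 bases before the start and the CHR letters at base 3 after it. In Kifc1 CCAAT occurred 3 times, at -74, -45 and 25 from the start, and the CHR letters at base 2. A match of letters is a description and not a bound site.

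Kinesin-2, the motor of outward intraflagellar transport, fell as deposited in all 3 genes tested. Its share of the summed kinesin level was 19.0% ± 0.699 in the controls and 9.26% ± 0.393 in the knockout, without overlap of libraries. Kif17 (chr4:138250435-138301967, plus strand), a homodimeric kinesin-2 that in spermatids also handles the CREM coactivator ACT, was at 113.9, 103.2 and 106.6 FPKM in the controls against 1.99, 1.82 and 1.94 in the knockout. The lowest control was above the highest knockout library by far more than either group's spread. The log2 fold change was -5.49 ± 0.0882 (limma adjusted p = 1.5e-09), and the ratio of scaled reads, 17471 against 550, was 56.0 (exact 95% interval 51.4 to 61.1, counting error only).

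The heterotrimeric kinesin-2 consists of Kif3a, Kif3b or Kif3c, and the adaptor Kifap3, and its parts changed unequally. Kif3b (chr2:153291413-153333390, plus strand) was at 90.8, 75.8 and 83.3 FPKM in the controls against 9.62, 8.27 and 7.98 in the knockout (log2 fold change -3.20 ± 0.109, limma adjusted p = 4.6e-08). Kifap3 was at 155.3, 134.5 and 119.3 FPKM in the controls against 10.4, 12.7 and 11.6 in the knockout (log2 fold change -3.50, limma adjusted p = 5.2e-08). Both fell without overlap and under all 4 scalings. Kif3a was at 47.6, 38.0 and 44.3 FPKM in the controls against 19.3, 23.9 and 23.2 in the knockout. Its log2 fold change was -0.96 ± 0.122 as deposited (limma adjusted p = 1.3e-04) but 0.22, -0.05 and 0.20 with FPKM summing to 1000000, total reads and quantile normalization.

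Within a library Kif3a per Kif3b was 0.524, 0.502 and 0.532 in the controls against 2.0, 2.88 and 2.90 in the knockout. The mRNA of Kif3b was thus the more abundant of the pair in the controls, and that of Kif3a in the knockout, per length. Kif3a per Kifap3 was 0.320 ± 0.0459 in the controls and 1.91 ± 0.0772 in the knockout. Neither ratio overlapped between groups (exact two-sided permutation p = 0.10, the smallest possible, with n = 3 per group). Kif3c, the brain-enriched alternative partner of Kif3a, lay under the filter at 0.175, 0.360 and 0.427 FPKM in the controls against 1.03, 0.861 and 0.769 in the knockout, and 34.7% of its 50-base windows are shared with the antisense gene 1110002L01Rik.

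All 20 other genes of intraflagellar transport fell as deposited, 18 of them under all 4 scalings, with a median log2 fold change of -2.44. Ift140 went from 112.1 ± 11.7 to 6.11 ± 0.554 FPKM and Ift172 from 101.0 ± 9.29 to 5.27 ± 0.637. The smallest changes were those of Ift20 (32.4 ± 1.37 to 23.7 ± 1.72 FPKM) and Ift52 (28.4 ± 1.75 to 18.6 ± 1.74). Both were called higher with FPKM summing to 1000000, total reads and quantile normalization. In this order the log2 fold changes were 0.73, 0.46 and 0.65 for Ift20 and 0.57, 0.30 and 0.39 for Ift52. The kinesin-2 median of -3.20 over 3 genes lay within the range of these 20, -4.14 to -0.45.

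Most motors of the axoneme and cilium fell steeply. Their share of the summed kinesin level was 22.9% ± 0.659 in the controls and 5.18% ± 0.132 in the knockout. As deposited 5 of the 6 were lower and 1 higher, and 4 were lower under all 4 scalings. Kif9 (chr9:110476958-110525179, plus strand), a kinesin-9 of the sperm central apparatus needed for full motility, was at 176.0, 145.8 and 155.9 FPKM in the controls against 2.20, 2.41 and 1.76 in the knockout. The groups lay far apart. Its log2 fold change was -5.93 ± 0.125 (limma adjusted p = 3.6e-09) and the ratio of scaled reads was 74.2 (exact 95% interval 68.3 to 80.8, counting error only).

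Kif27 (chr13:58287502-58359122, minus strand), which binds the central pair kinase Stk36, was at 115.5, 98.4 and 96.7 FPKM in the controls against 5.01, 5.40 and 6.29 in the knockout. Kif19a, a kinesin-8 that limits cilium length at the tip, was at 11.1, 8.48 and 9.88 FPKM in the controls against 0.432, 0.182 and 0.154 in the knockout. Kif6, the other kinesin-9, was at 3.20, 3.10 and 3.52 FPKM in the controls against 0.476, 0.362 and 0.450 in the knockout. None of these groups overlapped. The log2 fold changes were -4.10 for Kif27, -3.78 for Kif19a and -2.02 for Kif6, with limma adjusted p of 1.6e-08, 3.9e-07 and 4.3e-06. For Kif19a, with 1403 control reads and 66 knockout reads, the ratio of scaled reads was 37.5 (exact 95% interval 29.3 to 48.7, counting error only).

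A pair of ciliary motors did not follow. Kif7, the close relative of Kif27 that organises the cilium tip in Hedgehog signalling, was at 1.54, 1.38 and 1.29 FPKM in the controls against 4.80, 6.32 and 6.32 in the knockout. It rose without overlap (log2 fold change 1.72 ± 0.148, limma adjusted p = 1.2e-05) and under all 4 scalings. Within a library Kif7 per Kif27 was 0.0134, 0.0140 and 0.0134 in the controls against 0.957, 1.17 and 1.01 in the knockout. The relatives were thus at about equal levels in the knockout. Of the 50-base windows of Kif7, 16% are shared with the antisense gene 9330171B17Rik, so its reads are uncertain where counting did not use strand. Kif24, a kinesin-13 that keeps centrioles from growing cilia, was at 6.64 ± 0.170 FPKM in the controls and 4.58 ± 0.569 in the knockout. Its log2 fold change was -0.50 as deposited (limma adjusted p = 0.0046). Under the other 3 scalings it was 0.63 and 0.35, both called higher, and 0.14, not called.

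The 17 axoneme genes listed that are no kinesins all fell, under all 4 scalings, with a median log2 fold change of -5.25. Tekt1, a tektin inside axonemal doublets, went from 343.0 ± 39.6 to 0.839 ± 0.155 FPKM, and Spag17, of the central apparatus, from 70.0 ± 8.15 to 0.0630 ± 0.0569. The fall of Kif9 was within the range of this list, -8.00 to -3.73 on the log2 scale, and so was that of Kif2b compared with the spermatid markers, -12.56 to -4.83. These motors fell together with the summed spermatid and pachytene markers, and the part of those cells in the result was not tested.

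Among 5 of 33 members (15.2%) with a promoter window, the letters GTNNCC and GNAAC, spaced by 2 or 3 bases, were found, against 3.68% of all windows. This is the X-box of RFX factors, which act in cilia and in spermatids. The 5 were Kif9 and Kif17 and the spindle motors Kif18a, Kif18b and Kif23. The cAMP response element TGACGTCA, bound by CREM in spermatids, was in 3 members, Kif17, Kif18a and Kif5c, and in 1.79% of all windows, and its shorter form TGACGT was in 4 members and 7.51% of all windows. Both strands were searched, and a TGACGTCA also counts as a TGACGT. The window of Kif2b, the motor with the largest fall, held neither the X-box nor either form of the response element. Of 8 members with a window that were lower under all 4 scalings, 2 held the X-box and 1 held TGACGTCA. Of 12 that were higher, 1 held the X-box and 0 held TGACGTCA. Promoters of Kif17 (chr4:138262001-138262300, plus strand) and Kif9 (chr9:110476708-110477007, plus strand) are printed because these motors showed the largest falls after Kif2b, with the response element and the X-box in capitals.
Kif17: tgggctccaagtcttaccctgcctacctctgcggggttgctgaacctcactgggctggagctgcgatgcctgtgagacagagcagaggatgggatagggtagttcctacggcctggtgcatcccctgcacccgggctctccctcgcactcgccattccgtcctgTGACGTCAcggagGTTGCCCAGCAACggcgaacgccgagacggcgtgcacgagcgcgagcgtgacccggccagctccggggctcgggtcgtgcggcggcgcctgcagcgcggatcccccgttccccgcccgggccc
Kif9: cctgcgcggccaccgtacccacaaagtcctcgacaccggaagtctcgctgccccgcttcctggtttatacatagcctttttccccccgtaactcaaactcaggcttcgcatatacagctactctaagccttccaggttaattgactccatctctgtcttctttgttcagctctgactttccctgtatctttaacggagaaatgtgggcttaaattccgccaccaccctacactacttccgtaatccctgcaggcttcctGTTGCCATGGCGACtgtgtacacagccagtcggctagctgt
In Kif17 the response element began 86 bases before the start site and the X-box 73 before it. This start site is the one of RefSeq and lies 11816 bases from the start of the gene in the deposited table. In Kif9 the X-box began at base 10 after the start. The letters TTTNGCGC of E2F factors were in 2 of 33 windows, against 1.38% of all, and CNCCTCAG, a motif reported for STRA8, in 3 of 33 (9.09%), against 7.94% of all.

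**Figure D2:**
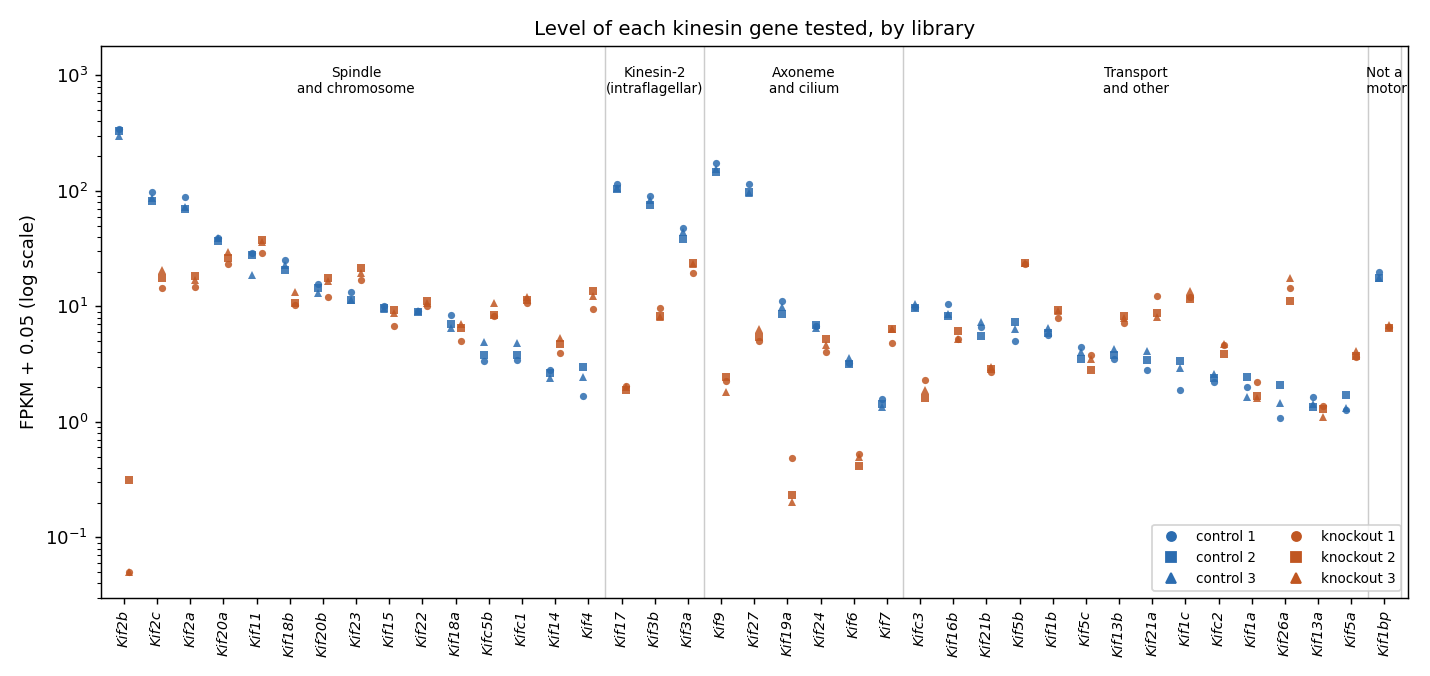
Level of the 39 kinesin genes tested in each of the 6 libraries (FPKM + 0.05, log axis), by role. Blue points are the 3 controls and orange points the 3 knockout libraries. Kif2b falls from 299.5 to 342.1 FPKM in the controls to 0, 0.264 and 0 in the knockout, and points of one group lie close together for most genes.

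Of the 17 members of cytoplasmic transport or another role, called transport motors here, 14 were tested. Of these 8 were higher, 3 lower and 3 not called, with a median log2 fold change of 0.64. Kif26a, without motor activity, is counted among them. It was at 1.49 ± 0.498 FPKM of a summed 58.2 to 62.6 in the controls and 14.4 ± 3.26 of 96.4 to 104.5 in the knockout. Among all genes tested 36.2% were higher and 50.4% lower, with a median of -0.41. With FPKM summing to 1000000, 12 of the 14 were higher and 1 lower, against 54.2% and 36.2% of all genes. Their share of the summed kinesin level went from 4.90% ± 0.476 to 28.0% ± 2.59, with every knockout library (25.9% to 30.9%) above every control (4.36% to 5.26%). All 8 rises held under all 4 scalings.

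**Figure D3:**
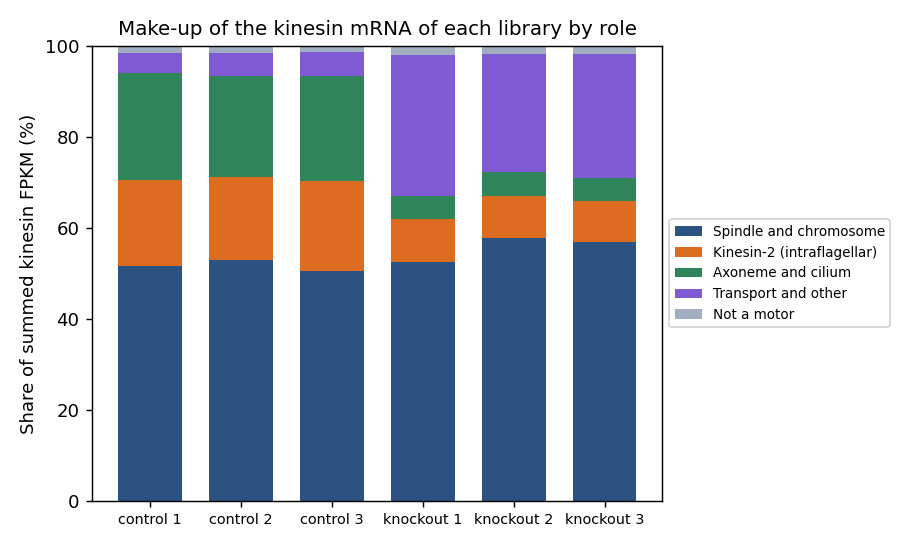
Share of the summed kinesin FPKM taken by each role in each of the 6 libraries, in percent (stacked bars from 0 to 100). The axoneme and cilium band shrinks from 22.2% to 23.5% in the controls to 5.09% to 5.33% in the knockout, and the transport band grows from 4.36% to 5.26% to 25.9% to 30.9%.

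Kinesin-1 is the chief motor for organelles and its 3 heavy chains differed. Kif5b (chr18:6201002-6242174, minus strand), the form of most tissues, was at 4.97, 7.21 and 6.33 FPKM in the controls against 23.2, 23.6 and 23.5 in the knockout (log2 fold change 1.86 ± 0.134, limma adjusted p = 4.2e-06). Kif5a, a neuronal form, was at 1.21, 1.67 and 1.28 FPKM in the controls against 3.60, 3.70 and 4.06 in the knockout (log2 fold change 1.19 ± 0.146, limma adjusted p = 9.7e-05). Both rose without overlap. Kif5c, also enriched in neurons, was at 4.41, 3.47 and 3.98 FPKM in the controls against 3.77, 2.77 and 3.44 in the knockout, with overlap and no call (limma adjusted p = 0.19), and its log2 fold change of -0.22 was 0.50 to 0.90 under the other scalings. Kif5b per Kif5c was 1.13, 2.07 and 1.59 in the controls against 6.15, 8.51 and 6.83 in the knockout.

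Their cargo-binding light chains and adaptors were likewise split. Of 18 transport partners tested 7 rose and 9 fell as deposited, and 7 rose and 5 fell under all 4 scalings. For all genes tested the shares were 36.2% higher and 50.4% lower as deposited, and 36.2% and 34.2% under all 4 scalings. The split of the partners was thus near that of genes at large. The light chain Klc1 rose from 2.96 ± 0.631 to 11.1 ± 0.439 FPKM and the mitochondrial adaptor Trak2 from 2.10 ± 0.309 to 8.30 ± 0.413. Klc3, a light chain of the sperm tail, went from 8.68 ± 0.406 to 3.59 ± 0.0238 FPKM, with a log2 fold change of -1.17, called lower. It was also called lower with total reads (-0.32) and quantile normalization (-0.52), but was not called with FPKM summing to 1000000 (-0.08). Mapk8ip2, a scaffold that links kinases to kinesin-1, fell from 29.7 ± 5.16 to 0.815 ± 0.113 FPKM and Plekhm2, which ties lysosomes to kinesin-1, from 32.0 ± 3.59 to 2.96 ± 0.166.

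Kif26a had the largest rise of all members tested. It is a kinesin-11 without motor activity that restrains GDNF and Ret signalling in enteric neurons. Its level was 1.04, 2.02 and 1.42 FPKM in the controls against 14.5, 11.1 and 17.6 in the knockout (log2 fold change 2.91 ± 0.226, limma adjusted p = 6.4e-06). All 3 knockout libraries were above all 3 controls. Its relative Kif26b stayed under the filter, at 0.185 ± 0.0357 and 0.145 ± 0.00996 FPKM.

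Members of kinesin-3, which carry vesicles and endosomes, went in different directions. Kif1c was at 1.82, 3.33 and 2.89 FPKM in the controls against 12.1, 11.6 and 13.5 in the knockout (log2 fold change 2.05 ± 0.190, limma adjusted p = 1.8e-05). Kif13b rose by 0.93 (limma adjusted p = 1.2e-04) and Kif1b, which carries mitochondria and synaptic vesicle precursors, by 0.52 (limma adjusted p = 0.0025). These 3 did not overlap between groups. Kif1a, the neuronal vesicle motor, was at 1.98 ± 0.400 and 1.79 ± 0.334 FPKM and Kif13a, a motor of endosomes, at 1.43 ± 0.154 and 1.20 ± 0.132, with overlap and no call. Kif16b, which moves early endosomes, was at 9.08 ± 1.21 FPKM in the controls and 5.46 ± 0.533 in the knockout, with a log2 fold change of -0.68 as deposited (limma adjusted p = 0.0013) and 0.45, 0.18 and -0.04 under the other 3 scalings. Within a library Kif1c per Kif1b went from 0.445 ± 0.122 to 1.42 ± 0.151 and Kif13b per Kif13a from 2.71 ± 0.467 to 6.54 ± 1.04, both without overlap.

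The kinesin-4 pair that slows microtubule growth changed in opposite directions as deposited. Kif21a was at 2.77, 3.36 and 4.04 FPKM in the controls against 12.3, 8.75 and 7.96 in the knockout (log2 fold change 1.38 ± 0.191, limma adjusted p = 2.1e-04). Kif21b was at 6.53, 5.52 and 7.25 FPKM in the controls against 2.65, 2.82 and 2.91 in the knockout (log2 fold change -1.07 ± 0.131, limma adjusted p = 9.8e-05). Kif21b was the higher of the pair in every control and Kif21a in every knockout library. The log2 fold change of Kif21b was -0.01 with FPKM summing to 1000000 and -0.25 with total reads, not called in either, and -0.39 with quantile normalization, where it was still called lower. The rise of Kif21a was called under all 4 scalings. The ratio of Kif21a to Kif21b was 0.530 ± 0.0956 in the controls and 3.49 ± 1.01 in the knockout.

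The minus-end-directed kinesin-14 motors outside the spindle went apart. Kifc3, which acts at cell junctions and in apical transport, was at 9.89, 9.68 and 10.5 FPKM in the controls against 2.27, 1.55 and 1.82 in the knockout (log2 fold change -2.15 ± 0.138, limma adjusted p = 2.1e-06). It was the 1 transport motor called lower under all 4 scalings. Kifc2, a motor of neuronal transport, rose from 2.35 ± 0.203 to 4.36 ± 0.450 FPKM (log2 fold change 0.77 ± 0.131, limma adjusted p = 7.1e-04). Kif12 was listed at 0 in all 6 libraries and Kif28 was at 0.0241 ± 0.00348 FPKM in the controls, from 3 reads in all, and 0.00906 ± 0.0157 in the knockout, from 2 reads. Kif1bp, the non-motor, fell from 18.3 ± 1.25 to 6.61 ± 0.208 FPKM (log2 fold change -1.40 ± 0.0948, limma adjusted p = 2.8e-06), with -0.27, -0.52 and -0.71 under the other 3 scalings.

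As deposited, markers of some somatic cells moved in the same direction as most transport motors, and others did not. Besides the Sertoli markers, 5 of 9 macrophage markers rose. The 9 summed to 62.0 to 104.6 FPKM in the controls and to 405.0, 106.8 and 139.9 in knockout libraries 1, 2 and 3, so library 1 stood apart. Of 7 Leydig cell markers 1 rose and 4 fell, from 105.3 to 165.9 to 27.1 to 80.8 summed FPKM. None of 5 peritubular markers tested was called as deposited. With FPKM summing to 1000000, total reads and quantile normalization, in this order, 4, 3 and 4 of them were called higher. Macrophage markers called higher were then 9, 8 and 9. Leydig cell markers were 2, 2 and 1 higher and 1, 2 and 2 lower, so the contrast between these cells depends on the scaling. Neuronal markers, of which 2 of 8 were tested, summed to 13.5 to 17.9 FPKM in the controls and 21.7 to 28.8 in the knockout, with Snap25 at 0 in all controls. The 2 tested went opposite ways, Tubb3 from 8.39 to 23.2 FPKM and Map2 from 6.72 to 0.390. The part of these cells in the rise of the transport motors was not tested.

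**Figure D4:**
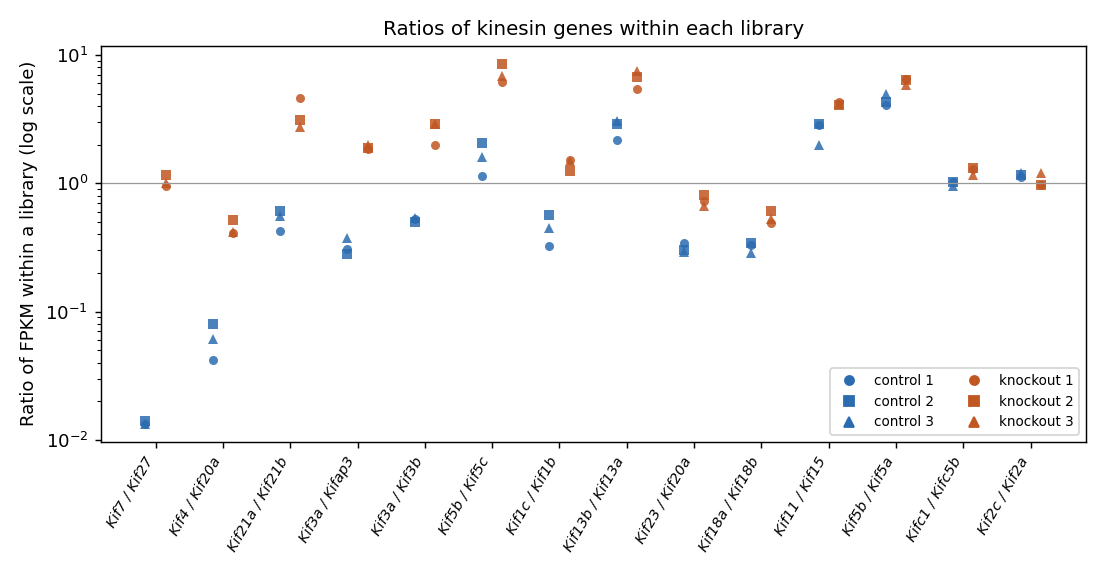
Ratio of the FPKM of paired kinesin genes (and of Kif3a to its adaptor Kifap3) in each of the 6 libraries, on a log axis with a line at 1. Blue points are controls and orange points knockout libraries. The groups separate in 13 of the 14 ratios and overlap for Kif2c per Kif2a. The levels of 88% of all genes tested also separate between the groups. The pairs were chosen with earlier results of these data known, and no share was computed for ratios of other genes.

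The order of levels changed from a steep to a flat one. In the controls Kif2b led at 322.9 ± 21.6 FPKM, followed by Kif9 at 159.2 ± 15.4, with no overlap of ranges between Kif2b and Kif9 or between Kif9 and the next. Kif17, Kif27, Kif2c, Kif3b and Kif2a came next, at means of 107.9 to 77.2 FPKM, and neighbours in that order overlapped. Kif3a and Kif20a overlapped below them, and then Kif11 and Kif18b. In the knockout Kif11 led at 34.2 ± 4.82 FPKM, followed by Kif20a, Kif5b, Kif3a, Kif23, Kif2c and Kif2a, and each of these overlapped with the next. Kif11 took 2.01% ± 0.403 of the summed kinesin level in the controls and 9.40% ± 0.764 in the knockout, Kif5b 0.503% ± 0.120 and 6.48% ± 0.431, and Kif9 12.8% ± 0.505 and 0.591% ± 0.113.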

How the data were processed

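Groups follow the sample titles. The submitters' processing notes name HISAT2 2.0.5 and the build mm10. A counter, an annotation release and a strand setting are not stated in the sources used here. The authors deposited FPKM for 54532 genes. FPKM times gene length gave whole reads for 100% of nonzero values, within 0.01 read, so reads were recovered. Genes averaging 1 FPKM or more were tested on log2(FPKM + 0.5) with limma 3.58.1 in R 4.3.3 (moderated by empirical Bayes with a mean-variance trend), and p-values were adjusted by Benjamini-Hochberg over all 16791 genes. Fold changes on this scale understate the change of low genes. SEs are moderated. Ratios within a library used exact permutation tests. Tables were made in Python 3.11.15 with pandas 2.3.3 and scipy 1.17.1. The model was tested on simulated data. Shared windows are stretches of 50 bases of GENCODE M21 transcripts, and 40 of the 43 members have the table's coordinates there. Motifs were searched in RefSeq promoter windows.

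Alternatives were other pseudocounts, filters, scalings and variance models, limma voom on recovered reads, a fit of protein-coding genes, a replicate block and leaving out each library. Every kinesin could be named. Of other genes the rule took Bcas2, Hnrnph1, Stra8, Cenpe, Kifap3 and up to 3 genes of smallest p per list. Klc1, Klc3, Trak2, Prc1, Racgap1, Ska1, Ccna2, Mki67, Ift20, Ift52, markers at 0, the genes with kinesin names that are not protein-coding and Odf1 were added after their values were seen. The members, lists, motifs and ratios were chosen with earlier results of these data known.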

Additional observations from a re-analysis of the deposited data

How the results depend on the processing

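Kinesins called higher numbered 25 with FPKM summing to 1000000, and kinesins called lower 11 with it and with total reads. Spindle motors were 11 higher and 3 lower under each of the 3 other scalings. With FPKM summing to 1000000 and with total reads, 2 axoneme and cilium motors were higher and 1 transport motor lower. A filter at 5 FPKM called 3227 genes higher and 5320 lower and left 0 axoneme and cilium motors higher, since Kif7 was not tested, and with no filter 1 kinesin-2 gene, Kif3c, was higher. Log2 fold changes that turned sign with FPKM summing to 1000000, total reads and quantile normalization, in this order, were 0.63, 0.36 and 0.64 for Kif20a, 0.92, 0.64 and 0.42 for Kif15, 0.91, 0.62 and 0.40 for Kif18a, 0.63, 0.35 and 0.14 for Kif24, 0.90, 0.59 and 0.50 for Kif5c, 0.97, 0.62 and 1.01 for Kif1a, and 0.83, 0.49 and 1.15 for Kif13a. Kif16b turned to 0.45 and 0.18 under the first 2, Kif3a to 0.22 and 0.20 under the first and last, and Kif18b to 0.18 under the first. Beyond the shift of the scaling itself, the cause was not tested. Leaving out each library gave 14 to 16 kinesins higher and 17 lower, with Kif11 and Kif22 the members that lost their call. Kif20b, not called, ranged from -0.02 (without knockout library 2) to 0.25, and Kif1a, not called, from -0.23 to 0.01 (without control library 2). Libraries of the same number did not deviate together (correlations of -0.122, -0.053 and -0.04) and did not all correlate best with their own number. With a replicate block 14294 genes were called, 5930 higher and 8364 lower, and only Kif11 (limma adjusted p = 0.0583) and Kif22 (0.0996) lost their call among kinesins. Limma voom on reads called 14451 genes. Depth limits Kif12, Kif26b, Kif28 and Kif3c, which were under the filter.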

Other observations

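A few deposited genes with kinesin names lie outside the set because they are not protein-coding. Kifc5c-ps, a pseudogene, was at 2.60, 2.29 and 1.64 FPKM in the controls and listed at 0 in all 3 knockout libraries. Kif16bos, an RNA opposite Kif16b, was at 12.9, 9.84 and 10.3 FPKM in the controls against 0.0933, 0.200 and 0.390 in the knockout. Kif22-ps was listed at 0 in all 6 libraries. Hnrnph1, named in the study's title, was at 61.2, 67.5 and 62.7 FPKM in the controls against 128.8, 155.8 and 135.7 in the knockout.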
